A study of Mus musculus with 48 samples.

Results

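The genes described here are 9 members of the transforming growth factor beta (TGF-beta) system, chosen by symbol from the 55486 genes of the count table: the ligands Tgfb1, Tgfb2 and Tgfb3, the receptors Tgfbr1 and Tgfbr2, the transducer Smad3, the inhibitor Smad7, and the target genes Ccn2 and Tgfbi. They were measured by bulk mRNA sequencing in mice of a QPCTL-KO strain on a C57/Bl6JR background and in their littermates. QPCTL is the Golgi glutaminyl cyclase, an enzyme that modifies protein N termini. The CD45-negative tumour cells (12 samples) were sorted alive from B16F10 melanomas 14 days after inoculation. Of these samples, 6 came from homozygous QPCTL-KO mice that had received QPCTL-KO B16F10 cells, and 6 from wild-type littermates that had received QPCTL-WT B16F10 cells. Bone marrow and spleen (8 samples each, 4 homozygous QPCTL-KO and 4 wild-type littermates) were frozen whole organs of mice aged 10 to 15 weeks that had received no tumour. The lymph node samples of the series were not analysed here, because the column names of the table do not separate lymph nodes of tumour-bearing mice from those of untreated mice. The column names carry no genotype either, so each tissue group mixes both genotypes.

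TGF-beta ligands are secreted in a latent form, bound to their own propeptide and to matrix or cell-surface proteins, and must be released before they bind. Active ligand brings TGFBR2 and TGFBR1 together, and the receptor complex phosphorylates SMAD2 and SMAD3, which enter the nucleus with SMAD4. SMAD7 is induced by the pathway and turns the receptors off. In tumours the pathway is known for its action on fibroblasts, vessels and immune cells, and in haematopoietic organs for restraining proliferation of lymphoid and myeloid cells.

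Library totals ran between 54117 and 510363 counts in tumour cells (median 305146.5), between 227240 and 637985 in bone marrow and between 219229 and 626316 in spleen, while the labels give an average of 18M reads per sample. At this depth the members held few counts. Levels are given as CPM, counts per 1e6 counts of the library after scaling by TMM factors. The library kit keeps the strand, and the strand setting of the counting is not given in the sources used here. Between 61.2% and 83.8% of a library's counts lay in genes that share 50 or more bases with coding exons of another gene on the opposite strand, while such genes made up 9.01% of the table. The mitochondrial gene mt-Nd6, on the strand opposite to the other coding genes of that genome, had 107125 counts over the 28 libraries, against 7 to 28880 for the 8 others examined. Whether counts listed under a member are reads of its own transcript or of the opposite strand was not settled, and all levels below are counts assigned to the gene. None of the members shares bases with coding exons on the opposite strand.

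Defining markers followed the labelled tissues. The leukocyte gene Ptprc, which encodes CD45, had 0 counts in all 12 tumour libraries, and the melanocyte gene Dct had 7054 counts there and 0 in bone marrow and spleen. Summed over 10 leukocyte markers, the tumour libraries held 63.8 to 139.5 CPM with 6 of the 10 genes at 0, the bone marrow libraries 1878 to 3642 CPM and the spleen libraries 555.4 to 2979 CPM. Of the 28 libraries, 4 stood apart from their group with a median Spearman correlation to the others under 0.8: the shallowest tumour library and 3 spleen libraries. Results that involve spleen are given without them too, from the fit with the same filter. The tumour cells were a sorted suspension and the organs were frozen whole, so tissue, preparation and inoculation cannot be told apart in any comparison with the tumour cells. In bulk samples, fewer cells of a type and less RNA per cell cannot be told apart.

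In edgeR's quasi-likelihood test after its own filter on low counts, 3 of the 9 members could be tested: Tgfb1, Tgfbr2 and Tgfbi. A looser filter, at least 1 CPM in at least 8 libraries, let all 9 be tested among 15885 genes. A gene that passes a filter only through the tissue where it is high has to differ, so the counts of called members are a description. In tumour cells against bone marrow, 6 of 9 members were called at an adjusted p under 0.05 with the looser filter, where 52.5% of all genes tested were called. Of these, 3 were higher (22% of all genes) and 3 lower (30.5% of all genes). For tumour cells against spleen, 5 of 9 were called, with 48.3% of all genes called: 1 was higher (18.4% of all genes) and 4 were lower (29.9% of all genes). Bone marrow against spleen gave 4 of 9, with 26.3% of all genes called: 1 was higher (11.5% of all genes) and 3 were lower (14.8% of all genes). With edgeR's own filter, 2 of 3 members were called for tumour cells against bone marrow (70.3% of 5143 genes called), 3 of 3 for tumour cells against spleen (67.8%) and 2 of 3 for bone marrow against spleen (38.1%). Shares over so few members are not set apart from these backgrounds.

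**Figure D1:**
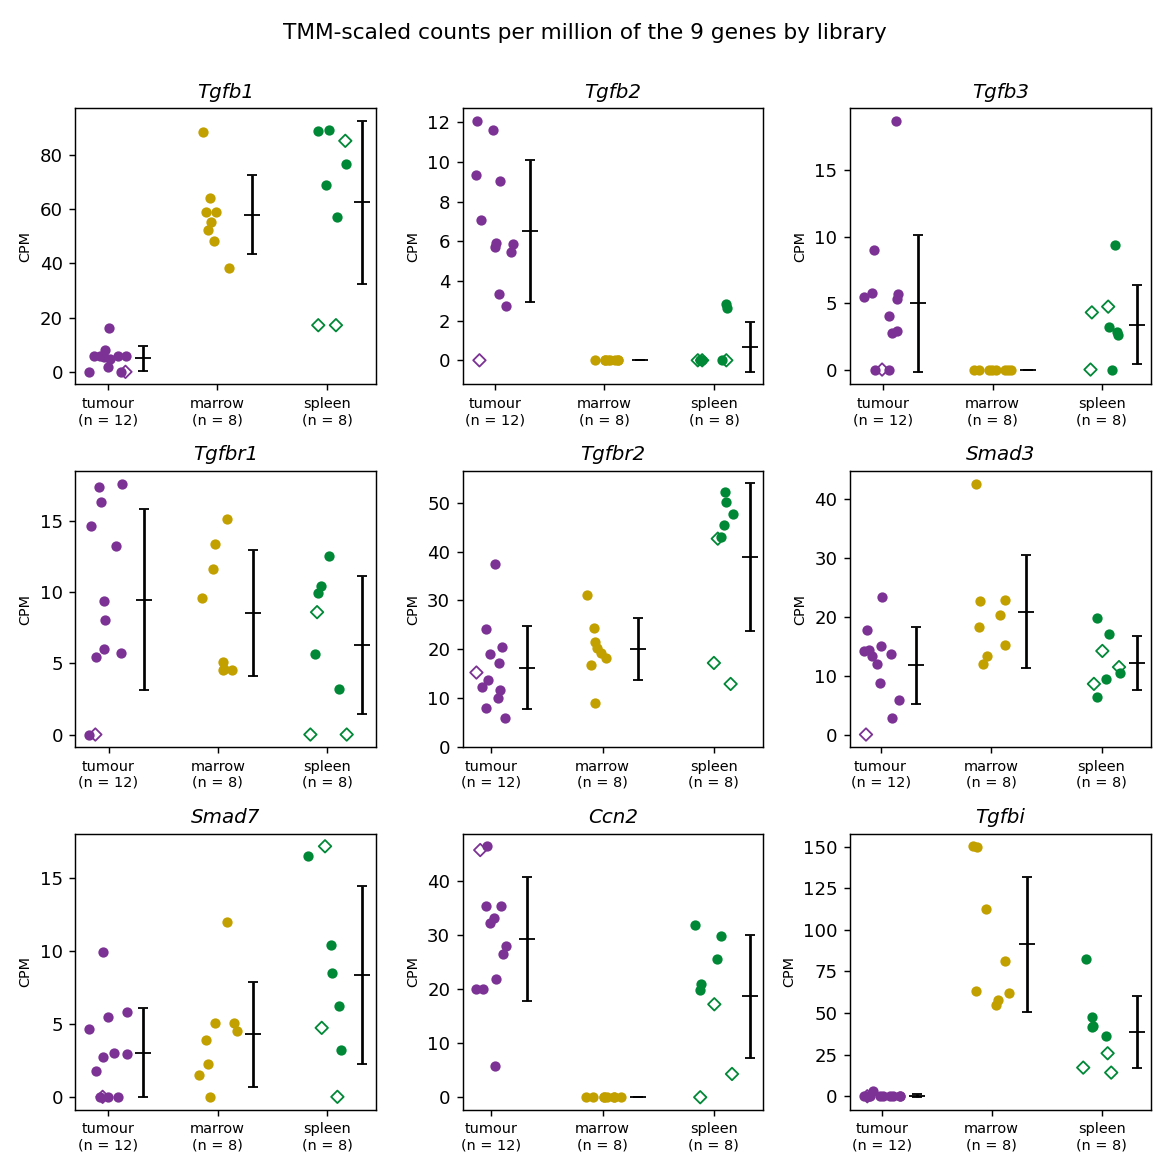
CPM (vertical axes, linear, 1 scale per gene) of each of the 9 genes in every library; each point is a library, open diamonds are the 4 libraries that stand apart, and black bars are the mean and SD of the group. Tgfb1 and Tgfbi sit near 0 in the 12 tumour libraries, while Tgfb2, Tgfb3 and Ccn2 have no count in the 8 bone marrow libraries.

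The ligands were distributed unequally. Tgfb1, the main isoform of immune cells, was the ligand of the organs: it had 0, 5.59 and 16.1 CPM (lowest, median, highest) in tumour cells, against 38.2, 57.1 and 88.5 CPM in bone marrow and 17.2, 72.8 and 89.5 CPM in spleen. The tumour libraries lay below every bone marrow and spleen library without overlap. On the log2 scale Tgfb1 fell by 3.41 (SE 0.35) in tumour cells relative to bone marrow, with an adjusted p of 4.18e-11 in edgeR's quasi-likelihood test. Relative to spleen it fell by 3.55 (SE 0.35, adjusted p = 3.16e-11 in the same test), and by 3.81 without the libraries that stand apart. No tumour library held more than 4 Tgfb1 counts, so the gene passed edgeR's filter through the organs alone. Its calls in the comparisons with tumour cells are therefore listed and not taken as support. Bone marrow minus spleen came to -0.14 (SE 0.26, adjusted p = 0.736 by edgeR; -0.44, adjusted p = 0.107, without the libraries that stand apart), which is within the spread of the 8 spleen libraries, where 2 of those that stand apart held 17.2 CPM each.

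Tgfb2, an isoform best known from development and from the eye, showed the opposite pattern at a lower level. It had 0, 5.89 and 12.1 CPM in tumour cells (23 counts in all, found in 11 of the 12 libraries), 0 counts in all 8 bone marrow libraries, and 0, 0 and 2.84 CPM in spleen (2 counts in all). The 1 tumour library with no Tgfb2 count was the shallowest. Setting the bone marrow at a floor of 3 counts over the group, which stands for 0.832 CPM, Tgfb2 was at least 7.91-fold higher in tumour cells, and the exact 95% counting interval of the ratio began at 5.93. Against the 2 counts of spleen the ratio was 8.58, with an interval of 2.12 to 75.1. Intervals and floors of this kind cover counting error only. Tgfb2 passed the looser filter through the tumour libraries alone, so its calls in edgeR (adjusted p = 1.94e-06 against bone marrow and 7.97e-04 against spleen, 0.00448 for spleen without the libraries that stand apart) are listed and not taken as support.

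Tgfb3, an isoform of mesenchymal tissue, had 0, 4.66 and 18.7 CPM in tumour cells, 0 counts in every bone marrow library and 0, 3.01 and 9.40 CPM in spleen. It was at least 6.19-fold higher in tumour cells than in bone marrow by the same floor, with an exact counting interval that began at 4.54 (adjusted p = 6.25e-05, edgeR, looser filter), and lower in bone marrow than in spleen, where spleen was at least 5.07-fold higher, with an interval that began at 3.47 (adjusted p = 0.00102, and 7.87e-04 without the libraries that stand apart). Tgfb3 and Ccn2 passed the looser filter with no library of bone marrow, so their calls against bone marrow are listed in the same way as those of Tgfb2. Tumour cells and spleen overlapped throughout, with a log2 difference of 0.29 (SE 0.56, adjusted p = 0.735 by edgeR; 0.26 without the libraries that stand apart). The tumour library with the highest Tgfb3 level, 18.7 CPM against 9.02 CPM in the next, was also the highest of the 12 for Tgfbr2 (37.4 CPM), Smad3 (23.4 CPM), Col1a1 (603.9 CPM against a median of 30.3 CPM) and Col3a1 (978.4 CPM against a median of 30.6 CPM). Its 10 fibroblast markers summed to 299.6 CPM, the highest of the tumour libraries, whose median was 62.0 CPM. The library next to it in these markers, at 278.5 CPM with Col1a1 at 398.6 CPM and Col3a1 at 515.9 CPM, had Tgfb3 at 2.93 CPM, below the median, and was the highest for the matrix gene Postn (76.2 CPM). The part of fibroblasts in the Tgfb3 level was not tested.

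Per kilobase of exon, the mean levels of the ligands in tumour cells were close: 1.47 CPM for Tgfb3, 1.12 for Tgfb2 and 0.985 for Tgfb1, and these neighbours did not differ beyond their spread. In bone marrow the level per kilobase was 11.5 CPM for Tgfb1 and 0 for both other ligands. Spleen had 12.4 CPM per kilobase for Tgfb1, 1.001 for Tgfb3 and 0.118 for Tgfb2.

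The sequence just upstream of the RefSeq start is shown for Tgfb1 and Tgfb2, the ligands whose levels ran in opposite directions between tumour cells and organs. Of the 9 members, 6 were matched to a RefSeq promoter window of the build GRCm38.p6. Both windows are the 250 bases before the start, 5′ to 3′ on the gene's strand: chr7:25686752-25687001 on the plus strand for Tgfb1 and chr1:186705990-186706239 on the minus strand for Tgfb2. Capitals mark the GC box GGGCGG, the SMAD-binding element core CAGAC and the TATA box TATAAA, on either strand.
Tgfb1: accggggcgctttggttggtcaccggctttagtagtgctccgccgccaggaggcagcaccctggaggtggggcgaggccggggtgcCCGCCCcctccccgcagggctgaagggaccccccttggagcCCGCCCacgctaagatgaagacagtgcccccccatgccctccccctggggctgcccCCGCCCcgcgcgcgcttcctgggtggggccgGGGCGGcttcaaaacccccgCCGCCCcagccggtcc
Tgfb2: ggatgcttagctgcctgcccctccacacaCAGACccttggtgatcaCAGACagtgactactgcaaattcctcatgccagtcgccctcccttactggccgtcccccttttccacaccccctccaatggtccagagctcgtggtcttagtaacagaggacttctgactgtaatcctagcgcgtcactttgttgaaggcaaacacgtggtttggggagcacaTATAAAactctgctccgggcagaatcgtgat
The Tgfb1 window held 5 GC boxes and no match to CAGAC or TATAAA. The Tgfb2 window held no GC box, 2 matches to CAGAC and 1 TATAAA, which began 31 bases before the start. Of the 32851 windows of this length, 32.7% held GGGCGG, 42.2% held CAGAC and 12.4% held TATAAA, so none of these words is rare. The other windows had 2 GC boxes for Smad3, 1 GC box and 2 CAGAC for Tgfbi, and 1 CAGAC and no GC box for Tgfbr2. Tgfbr1 has 2 windows, one with 2 GC boxes and no CAGAC and the other with 1 CAGAC and no GC box. A match is a description of the letters and not a bound site.

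Of the receptors, Tgfbr1 was not called between any of the tissues and Tgfbr2 was called against spleen. Tgfbr1, the type I kinase receptor, had 0, 8.70 and 17.7 CPM in tumour cells, 4.53, 7.36 and 15.2 CPM in bone marrow and 0, 7.14 and 12.5 CPM in spleen. These ranges overlapped almost fully. In edgeR with the looser filter, the log2 difference was 0.17 (SE 0.40, adjusted p = 0.748) for tumour cells minus bone marrow. It was 0.47 (SE 0.44, adjusted p = 0.402) for tumour cells minus spleen and 0.30 (SE 0.46, adjusted p = 0.708) for bone marrow minus spleen, and 0.30 for tumour cells minus spleen and 0.0049 for bone marrow minus spleen without the libraries that stand apart. At 20 to 38 counts per tissue, differences of about these errors were not detectable.

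Tgfbr2, the type II receptor that binds the ligand first, was highest in spleen. It had 5.91, 14.5 and 37.4 CPM in tumour cells, 9.07, 19.8 and 31.0 CPM in bone marrow, and 12.9, 44.2 and 52.3 CPM in spleen. In spleen 6 libraries lay between 42.6 and 52.3 CPM, above all libraries of the other tissues, and 2 that stand apart held 12.9 and 17.2 CPM. Tgfbr2 fell by 1.30 on the log2 scale in tumour cells relative to spleen (SE 0.26, adjusted p = 4.58e-05, edgeR) and by 0.96 in bone marrow relative to spleen (SE 0.26, adjusted p = 0.00313, edgeR). It passed edgeR's own filter mainly through spleen, so these 2 calls are listed and not taken as support. Tgfbr2 had counts in all 28 libraries. With the looser filter the differences were -1.34 (adjusted p = 7.88e-05, edgeR) and -0.91 (adjusted p = 0.0127, edgeR). Without the libraries that stand apart the difference was -1.58 for tumour cells minus spleen and -1.26 for bone marrow minus spleen. Tumour cells minus bone marrow came to -0.34 (SE 0.28, adjusted p = 0.282 by edgeR).

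SMAD3 is the receptor-activated transducer that carries the signal to DNA. Smad3 had 0, 13.5 and 23.4 CPM in tumour cells, 12.03, 19.3 and 42.7 CPM in bone marrow, and 6.37, 10.96 and 19.9 CPM in spleen. The bone marrow group holds 1 library of 42.7 CPM, far above its next at 22.8 CPM. Smad3 fell by 0.86 on the log2 scale in tumour cells relative to bone marrow (SE 0.32, adjusted p = 0.0184, edgeR, looser filter). Without that bone marrow library the difference was -0.61 with an adjusted p of 0.115, and with upper quartile scaling it was -0.60 with an adjusted p of 0.0983, so the call rests on that library and on the scaling. For tumour cells against spleen the difference was -0.01 (SE 0.39, adjusted p = 0.992 by edgeR), and its sign changed with the scaling and the libraries kept (0.052 without the libraries that stand apart). Bone marrow minus spleen was 0.86 (SE 0.35, adjusted p = 0.0625 by edgeR), and it was called at 0.91 without bone marrow library 1 (adjusted p just under 0.05), at 0.96 without spleen library 4 and at 1.003 without spleen library 7 (adjusted p = 0.0497 and 0.0376). Without the libraries that stand apart it was 0.80 (adjusted p = 0.0991 by edgeR).

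Smad7, the inhibitory SMAD, was among the sparsest members, with 11 counts in tumour cells, 15 in bone marrow and 21 in spleen. Its levels averaged 3.03 ± 3.06 CPM in tumour cells (SD, n = 12), 4.3002 ± 3.62 CPM in bone marrow (SD, n = 8) and 8.37 ± 6.14 CPM in spleen (SD, n = 8). All 3 groups overlapped. Tumour cells minus spleen was -1.30 on the log2 scale (SE 0.53, adjusted p = 0.0379, edgeR, looser filter), but the adjusted p lay between 0.0513 and 0.0742 under 5 of the alternatives and between 0.0515 and 0.106 when tumour library 1, 3, 10 or 12 or spleen library 2, 4, 7 or 8 was left out. The other differences were -0.45 (SE 0.56, adjusted p = 0.518 by edgeR) for tumour cells minus bone marrow and -0.85 (SE 0.51, adjusted p = 0.244 by edgeR) for bone marrow minus spleen. Without the libraries that stand apart, tumour cells minus spleen was -1.33 (adjusted p = 0.0432 by edgeR) and bone marrow minus spleen -0.98 (adjusted p = 0.172).

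**Figure D2:**
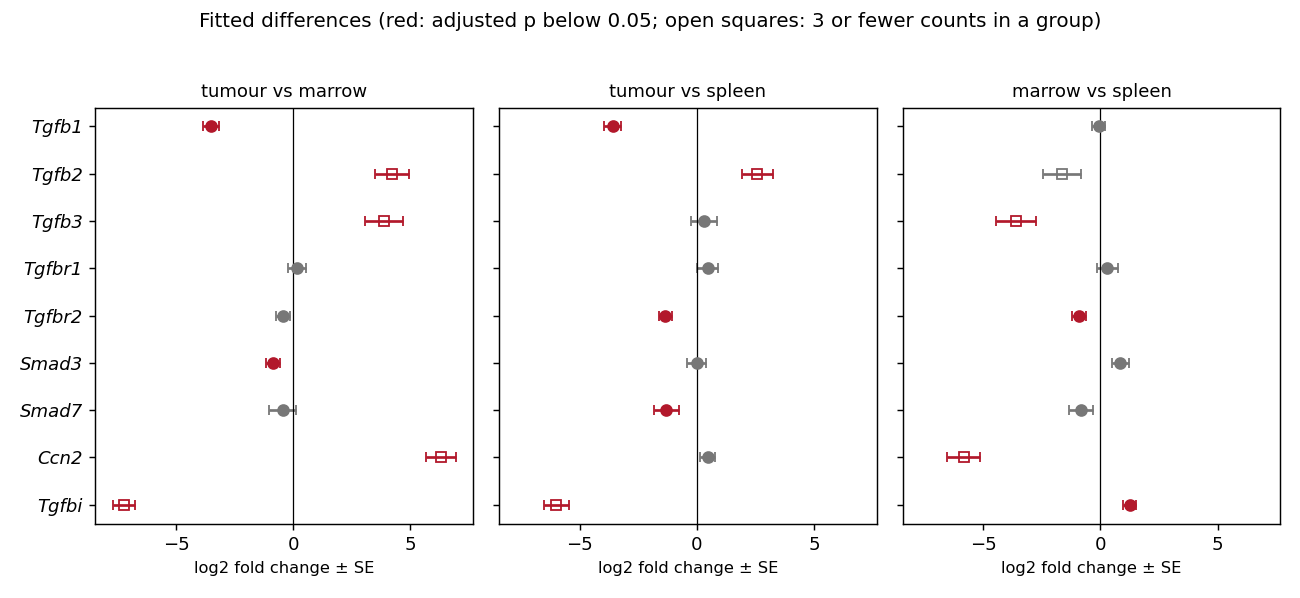
Log2 fold changes with their standard errors (horizontal axes) of the 9 genes in 3 comparisons, from edgeR's quasi-likelihood test with the looser filter; red marks an adjusted p under 0.05, and open squares mark fitted values that rest on 3 or fewer counts in one of the groups and are no bound. Tgfb1 and Tgfbi lie left of 0 in both comparisons of tumour cells, Tgfb2 lies right of 0 in both, and Ccn2 lies right of 0 against bone marrow and near 0 against spleen.

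The target genes Ccn2 and Tgfbi each had a tissue with almost no counts: Ccn2 had 0 in bone marrow and Tgfbi had 1 in tumour cells. Ccn2 encodes a matricellular growth factor of fibroblasts that TGF-beta induces. It had 5.80, 30.2 and 46.5 CPM in tumour cells (103 counts, present in 12 of 12 libraries), 0 counts in all 8 bone marrow libraries and 0, 20.4 and 31.9 CPM in spleen (56 counts). Bone marrow stood alone, below both other tissues. Ccn2 was at least 35.4-fold higher in tumour cells than in bone marrow (floor of 3 counts over the group, exact counting interval from 28.3, adjusted p = 8.65e-12, edgeR, looser filter). Spleen was at least 25.8-fold higher than bone marrow (interval from 20.3, adjusted p = 3.84e-09, edgeR, and 6.32e-13 without the libraries that stand apart). Tumour cells minus spleen was 0.46 on the log2 scale (SE 0.33, adjusted p = 0.249 by edgeR), and 0.16 without the libraries that stand apart. The summed fibroblast markers too were lowest in bone marrow by median, at 15.7 CPM (range 11.4 to 33.7, 6 of 10 genes at 0). Their median was 62.0 CPM in tumour cells (range 23.6 to 299.6, 1 of 10 at 0) and 94.1 CPM in spleen (range 40.2 to 133.3, 3 of 10 at 0). Between tumour cells and spleen these ranges overlapped. Of 8 fibroblast markers tested there with the looser filter, 4 were higher and 4 lower in tumour cells, with 48.3% of all genes called. Endothelial markers summed to a median of 9.27 CPM in tumour cells, 49.5 CPM in bone marrow and 136.9 CPM in spleen. Pecam1 alone had a median of 37.6 CPM in bone marrow. Of 6 endothelial markers tested against bone marrow (looser filter), 1 was higher and 2 lower in tumour cells, with 52.5% of all genes called. The other 3 were not called, and the list median was 0.15 on the log2 scale. Relative to spleen, 5 of the 6 were lower in tumour cells and 1 was not called, with 48.3% of all genes called. The part of either cell type in the Ccn2 level was not tested.

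Tgfbi encodes an extracellular matrix adhesion protein that was isolated as a TGF-beta-induced gene and is abundant in monocytes and macrophages. It had 1 count in the 12 tumour libraries together, against 54.7, 72.5 and 150.2 CPM in bone marrow and 14.2, 39.1 and 82.3 CPM in spleen. Tumour cells did not overlap either organ. By pooled counts, bone marrow was 343.9-fold higher than tumour cells (exact 95% counting interval 61.3 to 13620) and spleen 147.4-fold higher (25.9 to 5874), with an adjusted p in edgeR's quasi-likelihood test of 5.39e-16 against bone marrow and 4.68e-12 against spleen. With 1 count in tumour cells, Tgfbi passed edgeR's filter through the organs alone, so these p-values are listed and not taken as support. Between the organs, Tgfbi rose by 1.19 on the log2 scale in bone marrow relative to spleen (SE 0.27, adjusted p = 4.53e-04, edgeR), and by 0.83 without the libraries that stand apart. Summed myeloid markers differed in the same order: the level of 10 genes had a median of 415.2 CPM in tumour cells with 7 of 10 at 0, 25586 CPM in bone marrow and 1233 CPM in spleen. Of the 10 (looser filter), 9 were lower and 1 higher in tumour cells than in bone marrow, with 52.5% of all genes called. Relative to spleen, 9 were lower in tumour cells and 1 was not called (48.3% of all genes called). In bone marrow 8 were higher than in spleen, 1 was lower and 1 was not called (26.3% of all genes called). The neutrophil gene S100a9 had 0 counts in tumour cells, 43525 in bone marrow and 588 in spleen; the part of myeloid cells in the Tgfbi level was not tested.

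Per kilobase of exon, the member with the highest mean level was Ccn2 in tumour cells at 10.2 CPM, followed by Smad3 at 2.12 and Tgfbr2 at 1.99, which did not differ beyond their spread. In bone marrow the order was Tgfbi at 24.2, Tgfb1 at 11.5 and Smad3 at 3.77 CPM per kilobase. Spleen had Tgfb1 at 12.4, Tgfbi at 10.2, Ccn2 at 6.53 and Tgfbr2 at 4.76 CPM per kilobase.

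Genes with the most similar pattern were sought by Pearson's r of log2 CPM over the 28 libraries among 3965 protein-coding genes. These r values follow the contrast between 3 tissues, share library depth, and are a description. For Tgfb1 they were Cd52 (r = 0.95; 172 of its bases face coding exons on the other strand), Cfp (0.95) and Coro1a (0.95), of which Cd52 and Coro1a are leukocyte markers. Tgfbi was most like Sorl1 (0.99), Selplg (0.98) and Itgal (0.98), the last 2 being adhesion molecules of leukocytes. Tgfbr2 was most like the ribosomal protein genes Rps20 (0.84), Rpl26 (0.82) and Rps19 (0.80). Ccn2 was most like Enpp2 (0.90), Mical3 (0.88) and Rasgrp3 (0.87), and Tgfb3 was most like the fibrillar collagens Col3a1 (0.76), Col1a1 (0.74) and Col1a2 (0.74). The best r for Tgfbr1, Smad3 and Smad7 was 0.71, 0.69 and 0.67, and Tgfb2 had counts in only 13 libraries, so no gene is singled out for them.

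Noncoding genes lie on the opposite strand of 3 members, and their counts exceeded those of the member where it was detected for 2 of them. Gm15270, a processed transcript at chr10:24549441-24597108 (GRCm38, minus strand), shares 665 exon bases with Ccn2. It had 1116 counts in tumour cells, 2 in bone marrow and 770 in spleen, which is 10.8 counts per Ccn2 count in tumour cells and 13.8 in spleen, and it exceeded Ccn2 in 12 of 12 tumour libraries and 8 of 8 spleen libraries. Its level was 291.6 ± 114.3 CPM in tumour cells (SD, n = 12) and 288.7 ± 134.7 CPM in spleen (SD, n = 8), a log2 difference of 0.02 (SE 0.24, adjusted p = 0.966 by edgeR). Tgfb3 shares 257 bases with Gm48008 and 163 with Gm37804, both on the plus strand of chromosome 12. Gm48008 had 153 counts in tumour cells, 3 in bone marrow and 30 in spleen, and rose by 1.87 on the log2 scale in tumour cells relative to spleen (SE 0.31, adjusted p = 1.11e-06, edgeR, looser filter), a comparison in which Tgfb3 itself was not called. Gm37804 had 91 counts in tumour cells, 3 in bone marrow and 38 in spleen, with a log2 difference of 0.74 between tumour cells and spleen (SE 0.32, adjusted p = 0.0514 by edgeR). Gm29491, which shares 124 bases with Tgfb2 and whose span of 186705695 to 186707033 on chromosome 1 contains the Tgfb2 window printed above, had 0 counts in tumour cells, 1 in bone marrow and 3 in spleen. Reads of each pair cannot be separated in the shared bases without the strand setting.

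**Figure D3:**
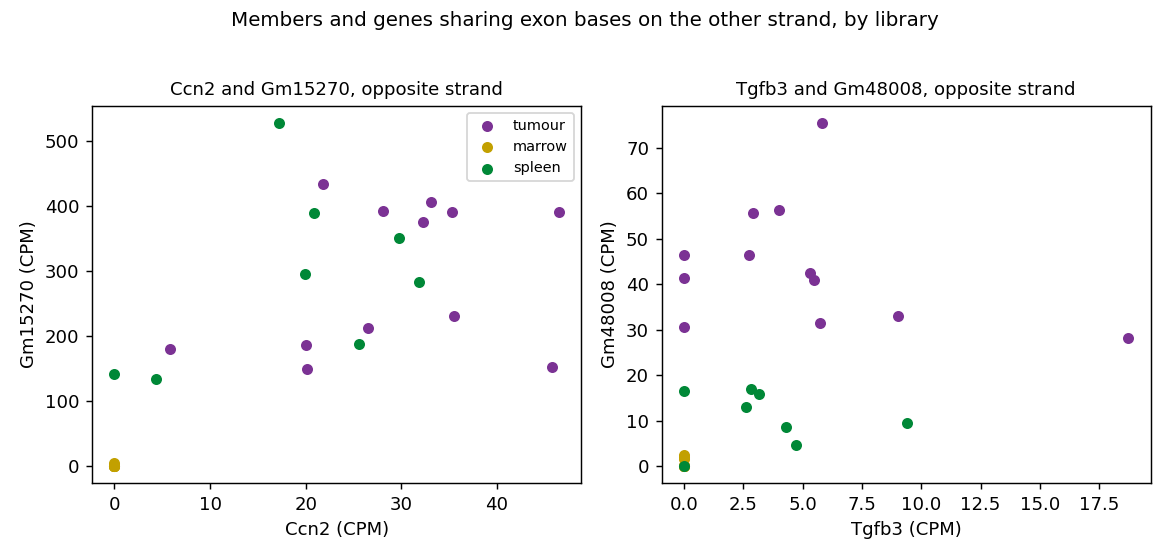
Level of Ccn2 (left, horizontal axis, CPM) against Gm15270 (vertical axis, CPM) and of Tgfb3 against Gm48008 (right) in the same library; each point is 1 of 28 libraries, coloured by tissue. Bone marrow lies at or near 0 on both axes of both panels, and Gm15270 reaches 434.2 CPM in tumour cells and 527.7 CPM in spleen.

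The rest of the pathway was described by 5 lists of genes, tested with the looser filter; over all genes tested, the median log2 difference was -0.18 for tumour cells minus bone marrow, -0.23 for tumour cells minus spleen and -0.08 for bone marrow minus spleen. The share of all genes called was 52.5%, 48.3% and 26.3% in these comparisons, as given above. A list gene with few or no counts in a tissue passed this filter largely through the other tissues, as Nrros and Tgfbr3 did for tumour cells. The calls and p-values of such genes are listed and not taken as support. Among 13 tested genes of ligand latency and activation, tumour cells were higher than bone marrow in 6 and lower in 4, with 3 not called and a list median of 1.18. Mmp14, a membrane-bound protease of the matrix, rose by 3.65 on the log2 scale (SE 0.40, adjusted p = 1.16e-11, edgeR). Nrros, which holds latent TGF-beta1 on myeloid cells, had 4 counts in tumour cells against 93 in bone marrow and fell by 4.15 (SE 0.52, adjusted p = 6.62e-10), and the gelatinase gene Mmp9 had 0 counts against 1693. Relative to spleen, 4 of the 13 were higher in tumour cells and 6 lower, with a median of -0.89. There Mmp2 rose by 2.71 (SE 0.30) and Itgav, the integrin subunit that releases active ligand, by 2.18 (SE 0.36), while Nrros fell by 3.93 (SE 0.54). Bone marrow was higher than spleen in 4 of the 13 and lower in 5, with a median of -0.58. Furin, the protease that cleaves the ligand precursor, rose by 2.35 (SE 0.25), and Ltbp4, a latent TGF-beta binding protein, had 0 counts in bone marrow against 58 in spleen.

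Among 9 tested other receptors and co-receptors, 4 were higher and 2 lower in tumour cells than in bone marrow (median 0.87), and 2 were higher and 2 lower than in spleen (median 0.45). Acvr1, a BMP type I receptor, had 63 counts in tumour cells, 1 in bone marrow and 3 in spleen. The co-receptor betaglycan gene Tgfbr3 fell by 2.63 in tumour cells relative to spleen (SE 0.61, adjusted p = 2.63e-04, edgeR), and Acvr1b, an activin type I receptor, fell by 1.12 relative to bone marrow and by 1.55 relative to spleen. Acvrl1, the endothelial type I receptor ALK1, rose by 1.82 in bone marrow relative to spleen (SE 0.38) and was 1 of 3 called genes of the list there, with 1 higher, 2 lower and a median of -0.59.

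Of 11 tested signal transduction genes, 1 was higher and 3 lower in tumour cells than in bone marrow (median -0.36). Relative to spleen 1 was likewise higher and 3 lower (median -0.28), and in bone marrow 1 was lower than in spleen (median 0.16); that gene, Zfyve9, which recruits SMADs to the receptor, shares 706 bases with coding exons on the other strand. Smad5, a BMP-responsive SMAD, rose by 1.79 (SE 0.33) in tumour cells relative to bone marrow and by 1.04 (SE 0.32) relative to spleen. Tab1, an activator of the kinase TAK1, fell by 1.497 (SE 0.49) relative to bone marrow and by 1.49 (SE 0.52) relative to spleen, and the coactivator gene Ep300 fell by 1.42 relative to bone marrow (SE 0.23).

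Of 13 tested inhibitors, 6 were higher and 3 lower in tumour cells than in bone marrow (median 0.15), and 3 were higher and 6 lower than in spleen (median -0.46). Nedd4l, a ubiquitin ligase that removes activated SMADs, rose by 3.02 (SE 0.31) relative to bone marrow and by 3.26 (SE 0.34) relative to spleen. The repressor gene Tgif2 fell by 2.37 (SE 0.23) relative to bone marrow and by 2.45 (SE 0.24) relative to spleen. Bgn, a proteoglycan that binds TGF-beta, had 41 counts in tumour cells, 0 in bone marrow and 211 in spleen. Bone marrow was lower than spleen in 3 of the 13, and the other 10 were not called (median -0.08).

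Of 23 other target genes tested, 12 were higher and 7 lower in tumour cells than in bone marrow, with a list median log2 difference of 2.13, which is 1.46 when the 9 genes at 0 in one of the tissues are set to their floor. Against spleen 11 were higher and 9 lower, with a median of 0.77. In bone marrow relative to spleen 1 was higher and 8 lower, with a median of -0.90, or -0.39 with 8 genes set to their floor. Sparc, a matrix glycoprotein, had a median of 188.5 CPM in tumour cells, 0 in bone marrow and 90.4 CPM in spleen. Col3a1, type III collagen, had a median of 30.6 CPM in tumour cells, 0 in bone marrow and 41.9 CPM in spleen, with 1 tumour library at 978.4 CPM. Vegfa, the endothelial growth factor, rose by 3.12 (SE 0.29) in tumour cells relative to spleen and Cdkn1a, the cell cycle inhibitor p21, by 2.95 (SE 0.46). Zeb1 had 3 counts in tumour cells, 36 in bone marrow and 54 in spleen, and Id3 had 1 count in tumour cells against 24 in spleen. Fn1, fibronectin, was the target gene that was higher in bone marrow than in spleen, by 2.20 (SE 0.29).

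Without the libraries that stand apart, the counts of 4 of the 5 lists moved by few genes. Against bone marrow, tumour cells were lower in 4 signal transduction genes in place of 3. Relative to spleen they were lower in 4 signal transduction genes in place of 3 and in 5 inhibitors in place of 6, and higher in 10 other target genes in place of 11. Bone marrow was lower than spleen in 6 latency genes in place of 5 and in 11 other target genes in place of 8, and higher in 1 inhibitor in place of 0.

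**Figure D4:**
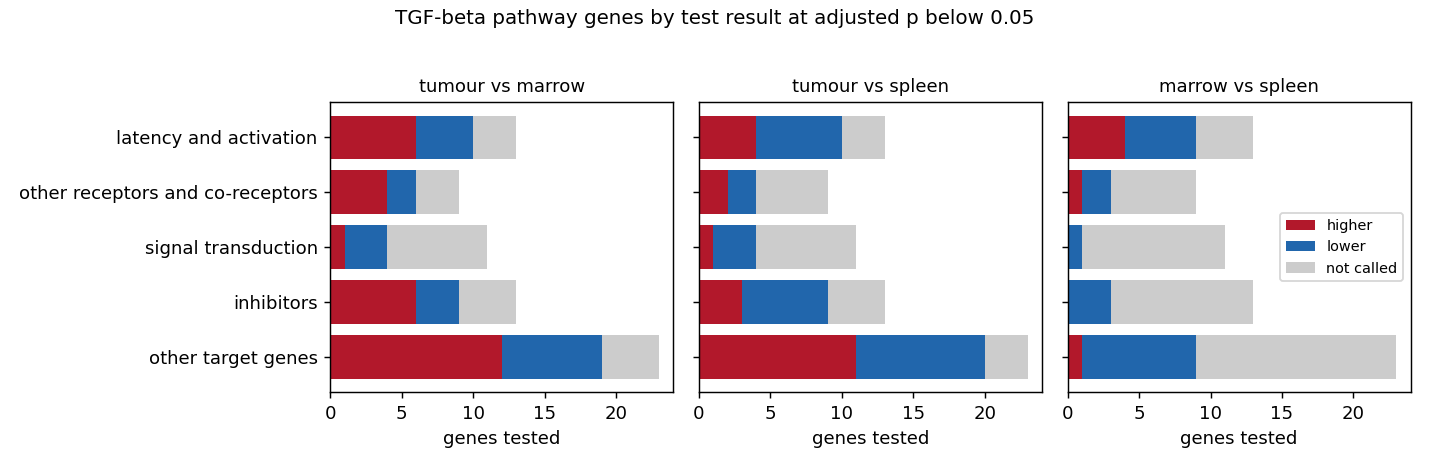
Number of tested genes (horizontal axes) in each of 5 pathway lists that were higher, lower or not called at an adjusted p under 0.05 in 3 comparisons, edgeR with the looser filter. Of other target genes, 19 of 23 were called against bone marrow and 20 of 23 against spleen, and of signal transduction genes 4 of 11 in both, where 52.5% and 48.3% of all genes tested were called.

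The study's own question, QPCTL-KO against QPCTL-WT in the CD45-negative tumour cells, could be read only from the authors' deposited table, whose direction is not stated and which lists 11340 genes. Host and tumour cells carried the same genotype in each arm, so their contributions cannot be told apart. The targeted gene comes first: in the authors' deposited table Qpctl had a log2 fold change of 0.69 with an adjusted p of 0.494, so it did not tell which arm is on top. In the count table Qpctl had 5.46, 12.8 and 29.6 CPM over the 12 tumour libraries and was present in each, and which part of the gene was deleted is not given in the sources used here.

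Among the members, the authors' deposited table called 0 of the 8 listed ones at an adjusted p under 0.05, where 0.644% of all its genes were called, and 0 had an unadjusted p under 0.05. Tgfbi was not listed. Among the ligands, the log2 fold changes in the authors' deposited table were 0.07 for Tgfb1, 0.27 for Tgfb2 and -0.23 for Tgfb3, with adjusted p-values of 0.969, 0.855 and 0.892. The receptors Tgfbr1 and Tgfbr2 stood at -0.51 and -0.14 (adjusted p = 0.654 and 0.898, authors' deposited table). Smad3 stood at 0.33 (adjusted p = 0.761) and Smad7 at 1.07 (adjusted p = 0.519), the largest difference among the members and the one with the fewest counts in tumour cells after Tgfbi, per the authors' deposited table and the count table. Ccn2 had the smallest p of the members in the authors' deposited table, 0.118, and its opposite-strand neighbour Gm15270 had a log2 fold change of -0.39 (adjusted p = 0.318). These p-values do not show that the arms were alike, since a member held 11 to 103 counts over the 12 libraries.

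Over the pathway lists, the authors' deposited table called 1 gene, Acvr2a, an activin type II receptor, at 0.86 (adjusted p = 0.0327). Of its exon bases, 446 face coding exons on the other strand, so its reads may be shared. Of 10 listed signal transduction genes, 9 were negative in the authors' deposited table, with a median of -0.65 beside -0.14 over all its genes. Of 11 listed inhibitors, 9 were negative, with a median of -0.46. Latency and activation had 7 of 8 negative with a median of -0.32, other receptors 5 of 7 with -0.16, and other target genes 10 of 16 with -0.26. The median over all genes was itself negative, and the share of negative values among all genes is not given here. These counts of negative genes are therefore a description and do not set the lists apart from other genes. The members had 4 positive and 4 negative values with a median of -0.03 in the authors' deposited table.

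**Figure D5:**
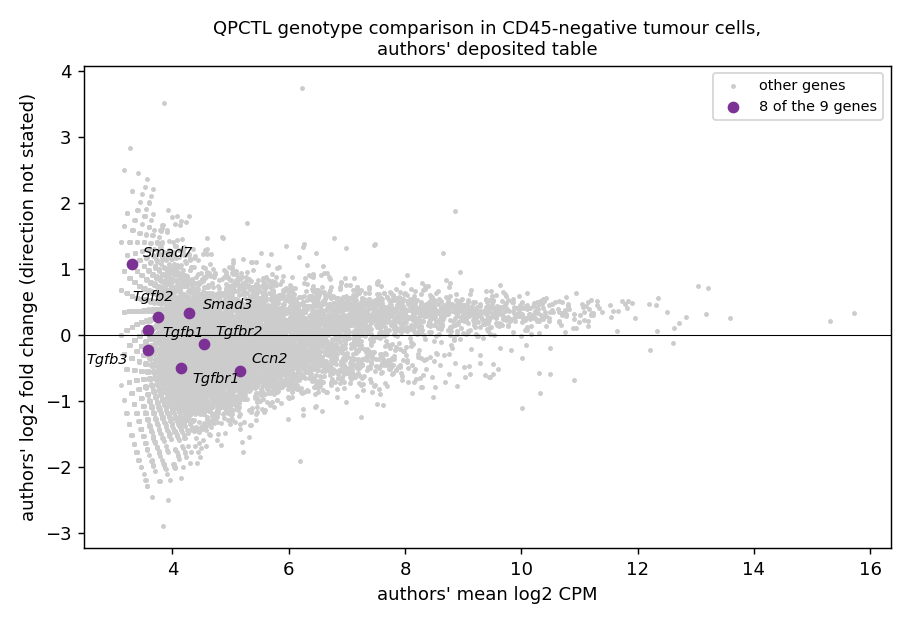
Authors' log2 fold change between QPCTL genotypes (vertical axis, direction not stated) against their mean log2 CPM (horizontal axis) for all genes of the authors' deposited table in grey and 8 of the 9 members in purple. The members lie among the low-count genes, with Smad7 at 1.07 and Ccn2 at -0.54 as their extremes.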

How the data were processed

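The deposited count table holds whole-number counts per gene, as deposited by the authors. Per the submitters' processing notes, HISAT2 and edgeR were used with the builds GRCm38 and mm10; their versions and the annotation used for counting were not stated in any label or header. Libraries were made with a stranded mRNA kit and sequenced as paired reads of 50 bases, per the labels' protocols. The authors' deposited genotype table gives log2 fold changes, mean log2 CPM, F statistics (a score that was not used), and p-values with adjusted p-values, without a stated direction. Of 48 count columns, 28 were used: 12 tumour, 8 bone marrow and 8 spleen, assigned by the tissue in the column name. The other 20, of lymph nodes, could not be assigned. The labels number the samples within a group without saying that each is a separate mouse, so p-values measure the spread between these samples.

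Counts were scaled by TMM and tested over all genes in 1 fit with edgeR 4.0.16 (quasi-likelihood test, limma 3.58.1, R 4.3.3), with Benjamini-Hochberg adjustment and a threshold of 0.05, after filterByExpr (minimum count 10) or the looser filter. The looser filter had been listed as an alternative and is used for members that filterByExpr drops. Tumour cells against bone marrow and against spleen were added after seeing which columns could be assigned; 3 of the 4 planned tissue comparisons need lymph nodes and were not made. Alternatives were DESeq2 1.42.0, limma-voom, other size factors, other filters and thresholds, 2-group fits, genes without opposite-strand coding exons, and leaving out libraries. Scripts were tested on simulated data. Gene positions are from GENCODE M21 (GRCm38), and promoter windows from RefSeq (GRCm38.p6).

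The members and lists were chosen with earlier results of these data known. Genes named besides the members are those of each pathway list with up to 2 of the largest positive and 2 of the largest negative called log2 fold changes per comparison, marker genes as levels, the 3 protein-coding genes most correlated with a member (prior count 2; over 28 in place of 48 libraries), and genes overlapping a member on the opposite strand. Of each list, a part of these is printed. At about 332074 counts per library (median), 3 counts over a tissue is the lowest level used for a fold.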

Additional observations from a re-analysis of the deposited data

Results flagged for a closer look

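Among 15 gene and tissue combinations of 8 samples checked with Dixon's test, 2 had a highest library whose gap to the next was large for its group; chance gives about 1 in 20. Smad3 in bone marrow reached 42.7 CPM in 1 library, with the next at 22.8 CPM and the lowest at 12.03 CPM, a gap of 0.649 of the range. Smad7 in bone marrow reached 12.03 CPM in another library, 5 counts, with the next at 5.09 CPM and a gap of 0.577 of the range.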

How the results depend on the processing

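The number of called members moved with the filter. With at least 1 CPM in at least 8 libraries it was 6 for tumour cells against bone marrow, 5 for tumour cells against spleen and 4 for bone marrow against spleen, and with no filter 6 and 4 for the first and last of these. Fits of only the 2 groups compared gave 0 for tumour cells against spleen, where 0 members passed edgeR's filter, and 1 of 2 tested for bone marrow against spleen; with the looser filter the last comparison gave 2 of 6 tested. A minimum fold of 2 left 1 for bone marrow against spleen. Leaving out each library in turn gave 2 to 3 called members in each comparison with edgeR's filter. For tumour cells minus spleen, the sign of Smad3 turned to 0.17 with upper quartile scaling, 0.13 with library size alone, 0.036 over genes without opposite-strand coding exons and 0.052 without the libraries that stand apart, and it ran between -0.10 and 0.12 when single libraries were left out; none of these passed the threshold. Smad3 in bone marrow against spleen was called with library size alone (0.90 on the log2 scale, adjusted p just under the threshold by edgeR). With whole-set alternatives, single-gene and list results kept their direction and side of the threshold, or their count within 1.5 times, in 366 combinations and changed in 13. Called members in the authors' deposited table stayed at 0 under its 4 alternatives. The cause of these changes was not tested beyond the number of genes that pass a filter. No paired analysis was possible because the column names carry no sample number that matches the titles; the replicate block and the 3 lymph node comparisons were not run. Depth is a limit: 7 of the 9 members held 1 to 38 counts in at least 1 tissue where they were detected, and a tissue with 0 counts allows up to 0.832 CPM in bone marrow.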
